A study of Mus musculus with 8 samples.

Results

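The 37 genes described here encode proteins of homologous recombination, of the Fanconi anaemia pathway and of the DNA damage checkpoint. They were chosen by name from those pathways, and all 37 were found among the 18020 rows of an RNA sequencing table of bone marrow from leukaemic mice. The mice had been transplanted with B cells transformed by BCR-ABL1, the fusion tyrosine kinase of a B-cell acute lymphoblastic leukaemia, and every group shared that fusion and the transplant. KO_LPS (n = 3) held mice given Aid KO cells treated with lipopolysaccharide (LPS), an outer-membrane molecule of bacteria sensed through a Toll-like receptor, WT_LPS (n = 3) held mice given LPS-treated Aid WT cells, and WT_PBS (n = 2) held mice given Aid WT cells treated with PBS, the vehicle. The labels give no age, dose or time, and do not say whether the cells of a group came from separate cultures or what marrow cells of the host remained, so p-values here reflect no more than how far these libraries scatter, part of which may be technical. Aid KO cells without LPS were not analysed here, so a difference between KO_LPS and WT_PBS joins genotype and treatment.

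Homologous recombination copies the sister chromatid to mend a double-strand break: the ends are resected to single strands, and a strand then invades the intact copy with the help of BRCA2. The Fanconi pathway unhooks crosslinks between the strands and hands the resulting break to the same machinery, while the ATM and ATR kinases hold the cell cycle meanwhile. Many of these repair genes are transcribed mainly in S phase and G2.

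Expression was given in FPKM, which counts fragments per kilobase of a transcript after scaling by library size. Library totals ranged from 606576 to 700238 FPKM, and depth in reads is unknown. The highest totals were those of KO_LPS replicates 1 and 2 (700238 and 678833 FPKM) and WT_LPS replicate 1 (689299 FPKM). The rest reached at most 636907 FPKM, so libraries did not share one total. The libraries were mixtures: the 12 B-lineage genes, which fit the labelled cell type, summed to 5360 to 7893 FPKM with Ms4a1 at 0 in at least 1 library, and 12 neutrophil genes summed to 5931 to 29559 FPKM. A few libraries stood apart from the others of their groups. On the first principal component of all tested genes other than the 37, which held 60.5% of the variance, KO_LPS replicates 1 and 2 scored 34.4 and 49.9 and WT_LPS replicate 1 scored 17.3, whereas the other 5 libraries scored between -35.1 and -1.28. In bulk marrow, fewer cells of a type and less RNA per cell cannot be told apart.

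Sequences around annotated starts of these genes are shown because E2F, the transcription factor family of the G1/S step, is known for its sites in promoters of S-phase genes. The letters searched were TTTCCCGC, TTTCGCGC, TTTGCCGC and TTTGGCGC, on both strands, in windows from 250 bases before to 50 bases after the annotated start (RefSeq, GRCm38.p6). A window was found for 28 of the 37 genes, and 7 of these (25.0%) held a match, namely Bard1, Brca2, Chek2, Fancg, Mdc1, Rad51c and Topbp1, against 4.9% of 9266 tested genes and 2.6% of all 27025 genes with a window. A match describes letters and not a bound site. The CCAAT box, searched as CCAAT on both strands, was in 16 of 28 (57.1%), against 43.9% of tested genes, and the cell cycle homology element, searched as TTTGAA or TTCGAA, in 3 of 28 (10.7%), against 16.9%. Printed 5′ to 3′ on the strand of the gene, with the E2F match in capitals, are the 4 of the 7 that belong to genes with full statistics below. They lie at chr5:150522371-150522670 on the plus strand for Brca2, with the match beginning 168 bases before the start, at chr5:110839733-110840032 on the plus strand for Chek2 (152 bases before), at chr9:103305077-103305376 on the plus strand for Topbp1 (129 bases before) and at chr4:43010252-43010551 on the minus strand for Fancg (52 bases before).
Brca2: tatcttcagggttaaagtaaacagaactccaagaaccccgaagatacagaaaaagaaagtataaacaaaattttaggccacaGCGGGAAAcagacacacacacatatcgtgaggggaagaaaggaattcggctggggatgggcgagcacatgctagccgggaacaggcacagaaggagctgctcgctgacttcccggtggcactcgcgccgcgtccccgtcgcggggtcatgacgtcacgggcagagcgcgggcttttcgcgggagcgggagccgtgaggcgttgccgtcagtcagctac
Chek2: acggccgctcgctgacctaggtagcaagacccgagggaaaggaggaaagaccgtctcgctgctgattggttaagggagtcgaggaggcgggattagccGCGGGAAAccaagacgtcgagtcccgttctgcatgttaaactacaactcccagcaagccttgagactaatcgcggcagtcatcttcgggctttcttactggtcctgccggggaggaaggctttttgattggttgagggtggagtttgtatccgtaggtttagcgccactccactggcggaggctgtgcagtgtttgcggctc
Topbp1: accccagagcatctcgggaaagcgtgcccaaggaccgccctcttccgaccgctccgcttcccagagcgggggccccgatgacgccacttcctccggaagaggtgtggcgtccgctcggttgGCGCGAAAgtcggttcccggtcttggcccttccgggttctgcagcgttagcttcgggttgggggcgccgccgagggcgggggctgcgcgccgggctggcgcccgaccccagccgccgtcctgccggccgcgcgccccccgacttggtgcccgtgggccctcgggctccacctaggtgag
Fancg: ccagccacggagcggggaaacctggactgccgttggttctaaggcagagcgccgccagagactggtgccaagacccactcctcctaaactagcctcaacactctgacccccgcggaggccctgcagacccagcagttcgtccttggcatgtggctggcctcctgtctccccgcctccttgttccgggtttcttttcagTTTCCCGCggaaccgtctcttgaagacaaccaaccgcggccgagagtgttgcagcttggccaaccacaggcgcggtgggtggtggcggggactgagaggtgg
In Brca2, Chek2 and Topbp1 the capitals are the reverse complement of a searched word, and in Fancg the word itself. Each printed match lies inside the RefSeq span of its gene. That span begins at 150522297 for Brca2, 110839800 for Chek2 and 103305167 for Topbp1, and for Fancg, on the minus strand, its 5′ end is at 43010567. The distances given therefore count from the start used for the window and not from the outer end of the span.

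All 37 genes were above 0 in all 8 libraries, and their levels spanned a wide range. Levels are compared in FPKM, which is per length. Over the 8 libraries 27 genes averaged under 10 FPKM, 8 between 10 and 50 FPKM and 2 over 100 FPKM. The highest were H2afx (144.7 FPKM), the histone variant that is phosphorylated beside breaks, and Parp1 (133.3 FPKM), the polymerase that marks strand breaks with ADP-ribose chains. Topbp1, the activator of ATR, followed at 44.4 FPKM, then Xrcc3 at 20.4 and Rad51ap1 at 16.7 FPKM. The lowest was Rad51c at 1.56 FPKM, which acts in strand invasion, next to Fancm (2.39), Rad52 (2.76), Rad51b (2.79) and Palb2 (2.96 FPKM).

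**Figure D1:**
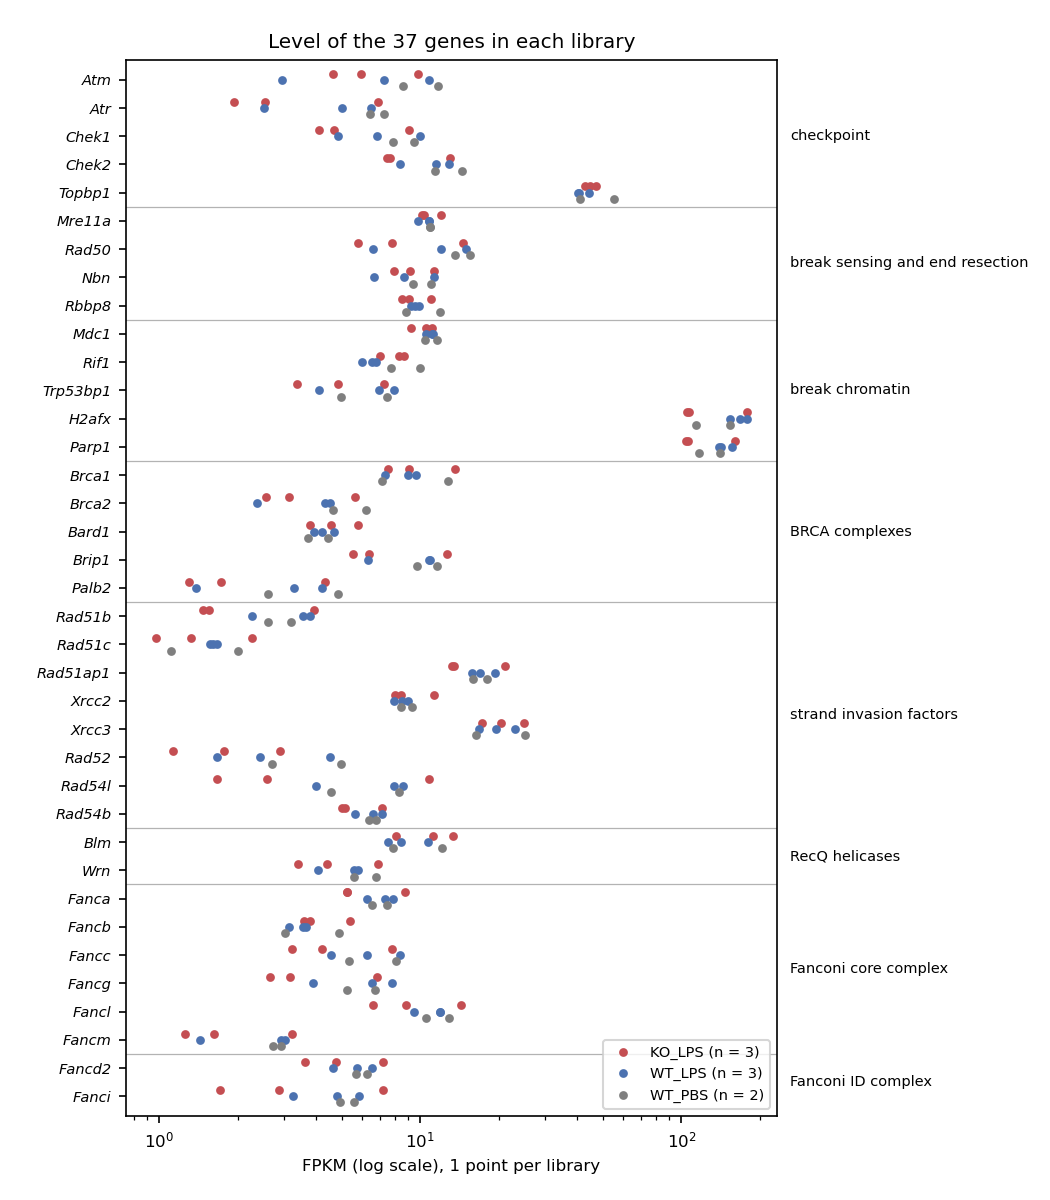
Level of each of the 37 genes in FPKM on a log axis, 1 point per library, with genes grouped by role and KO_LPS above WT_LPS and WT_PBS within a row. H2afx and Parp1 lie above 100 FPKM in every library, most other genes lie under 20 FPKM, and the points of the 3 groups overlap in nearly every row.

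Among the checkpoint genes, Atr, the kinase that answers stalled forks, was at 2.54, 1.94 and 6.87 FPKM in KO_LPS, at 2.53, 6.49 and 5.0 FPKM in WT_LPS, against 6.40 and 7.27 FPKM in WT_PBS. Atm, the kinase that answers double-strand breaks, was at 5.91, 4.64 and 9.82 FPKM in KO_LPS, at 2.95, 10.76 and 7.26 FPKM in WT_LPS, against 8.60 and 11.71 FPKM in WT_PBS. For both kinases the low values were in KO_LPS replicates 1 and 2 and in WT_LPS replicate 1, and the values of the 2 LPS groups overlapped. The effector kinase gene of ATR, Chek1, was at 4.68, 4.10 and 9.09 FPKM in KO_LPS, at 4.85, 9.95 and 6.82 FPKM in WT_LPS, against 7.87 and 9.47 FPKM in WT_PBS. Chek2, the effector kinase of ATM, was at 7.49, 7.65 and 13 FPKM in KO_LPS, at 8.40, 12.87 and 11.54 FPKM in WT_LPS, against 11.39 and 14.45 FPKM in WT_PBS. Both were again lowest in the same 3 libraries. Topbp1 was at 42.63, 47.32 and 44.59 FPKM in KO_LPS, at 40.15, 40.54 and 44.23 FPKM in WT_LPS, against 54.99 and 40.99 FPKM in WT_PBS, with its widest gap between the pair of WT_PBS libraries.

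The MRN complex of MRE11, RAD50 and NBN senses the break and starts resection. Its 3 genes had like mean levels, 10.7 FPKM for Mre11a, 11.4 FPKM for Rad50 and 9.42 FPKM for Nbn, but differed in how they varied. Mre11a, the nuclease, was the steadiest of the 37, at 10.36, 10.18 and 11.98 FPKM in KO_LPS, at 9.79, 10.79 and 10.80 FPKM in WT_LPS, against 10.89 and 10.94 FPKM in WT_PBS, a coefficient of variation of 6.07% over the 8 libraries. Rad50, the ATPase that tethers the ends, was at 7.78, 5.77 and 14.61 FPKM in KO_LPS, at 6.59, 14.97 and 11.99 FPKM in WT_LPS, against 13.59 and 15.50 FPKM in WT_PBS, a 2.69-fold range. The ratio of Rad50 to Mre11a, which no scaling of a library changes, was therefore 0.751, 0.567 and 1.22 in KO_LPS, 0.673, 1.39 and 1.11 in WT_LPS and 1.25 and 1.42 in WT_PBS. The KO_LPS ratios lay below both WT_PBS ratios, by a gap smaller than the spread within KO_LPS, and those of WT_LPS overlapped both. Rbbp8, which encodes CtIP, the partner of MRN in resection, stayed between 8.52 and 11.88 FPKM.

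Of the genes for chromatin at the break, H2afx was at 107, 105 and 178 FPKM in KO_LPS, at 153.02, 179 and 168 FPKM in WT_LPS, against 114 and 152.99 FPKM in WT_PBS. WT_LPS lay above WT_PBS, by 0.03 FPKM at the nearest pair, and KO_LPS overlapped both. Rif1, which acts with 53BP1 to limit resection, was at 7.0, 8.31 and 8.64 FPKM in KO_LPS, at 5.96, 6.55 and 6.75 FPKM in WT_LPS, against 9.95 and 7.71 FPKM in WT_PBS. It was the only one of the 37 whose WT_LPS values lay apart from those of both other groups, below each. How many of all tested genes lay below both was not computed. Values of WT_LPS lay below WT_PBS for 10.3% of all tested genes and below KO_LPS for 4.82%. Parp1 was at 106, 104 and 159.9 FPKM in KO_LPS, at 142, 139.7 and 156 FPKM in WT_LPS, against 117 and 141 FPKM in WT_PBS, so its lowest values were KO_LPS replicates 1 and 2. Mdc1, the reader of phosphorylated H2AX, varied little (9.22 to 11.58 FPKM), and Trp53bp1, which encodes 53BP1, ranged from 3.38 to 7.92 FPKM.

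The BRCA genes divided. Brca1, the ubiquitin ligase subunit that promotes recombination, was at 7.56, 13.64 and 9.05 FPKM in KO_LPS, at 9.02, 7.35 and 9.67 FPKM in WT_LPS, against 12.78 and 7.13 FPKM in WT_PBS. Its obligate partner Bard1 was at 3.78, 5.79 and 4.57 FPKM in KO_LPS, at 4.66, 3.93 and 4.19 FPKM in WT_LPS, against 4.42 and 3.71 FPKM in WT_PBS. Both peaked in KO_LPS replicate 2, the library where Atr and Rad50 were lowest, and their ratio stayed between 1.87 and 2.89. Brca2, whose protein acts between resection and strand invasion, was at 3.15, 2.57 and 5.63 FPKM in KO_LPS, at 2.37, 4.50 and 4.31 FPKM in WT_LPS, against 6.19 and 4.65 FPKM in WT_PBS. Palb2, the link between BRCA1 and BRCA2, was at 1.30, 1.72 and 4.32 FPKM in KO_LPS, at 1.39, 4.20 and 3.30 FPKM in WT_LPS, against 2.61 and 4.83 FPKM in WT_PBS. Its ratio to Brca1 ran from 0.126 in KO_LPS replicate 2 to 0.677 in WT_PBS replicate 2, a 5.37-fold range, the widest of the 11 ratios computed. Brip1, a helicase bound to BRCA1, ranged from 5.52 to 12.62 FPKM.

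**Figure D2:**
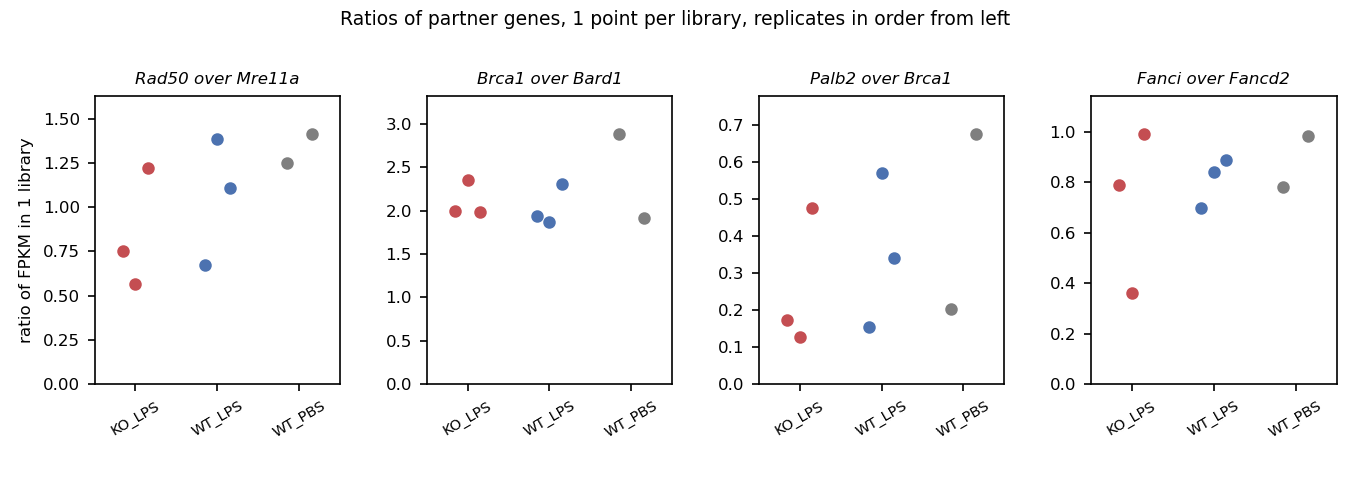
Ratio of the FPKM of 2 partner genes within 1 library, 1 point per library, for Rad50 over Mre11a, Brca1 over Bard1, Palb2 over Brca1 and Fanci over Fancd2, with KO_LPS left of WT_LPS and WT_PBS and replicates in order from left. Brca1 over Bard1 stayed between 1.87 and 2.89, whereas Palb2 over Brca1 ran from 0.126 to 0.677, and the groups overlapped except KO_LPS (up to 1.22) and WT_PBS (from 1.25) in Rad50 over Mre11a.

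Factors of strand invasion and annealing held the most variable gene of the 37. Rad54l, which encodes the RAD54 motor protein that aids strand invasion, was at 2.59, 1.66 and 10.77 FPKM in KO_LPS, at 3.99, 8.63 and 7.92 FPKM in WT_LPS, against 4.55 and 8.27 FPKM in WT_PBS. This 6.49-fold range was the widest of the 37, and KO_LPS alone held both its ends. Rad52, the annealing protein, was at 1.13, 1.78 and 2.90 FPKM in KO_LPS, at 1.66, 4.51 and 2.43 FPKM in WT_LPS, against 2.70 and 4.97 FPKM in WT_PBS. Rad51b was at 1.55, 1.47 and 3.91 FPKM in KO_LPS, at 2.26, 3.78 and 3.56 FPKM in WT_LPS, against 2.61 and 3.21 FPKM in WT_PBS, while Xrcc2, whose protein sits in the same complex, kept to 7.97 to 11.27 FPKM. Xrcc3, which also acts in recombination, was at 20.37, 25.01 and 17.23 FPKM in KO_LPS, at 23.02, 16.85 and 19.47 FPKM in WT_LPS, against 25.23 and 16.35 FPKM in WT_PBS. Xrcc3 thus ran in the opposite order to Rad54l within KO_LPS. Rad51ap1, which aids strand invasion, ranged from 13.18 to 21.14 FPKM, Rad54b, a relative of RAD54, from 5.0 to 7.17 FPKM and Rad51c from 0.97 to 2.26 FPKM.

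The RecQ helicase genes and the Fanconi genes showed the same split. Blm, the helicase that dissolves joint molecules, peaked at 13.37 FPKM in KO_LPS replicate 2, whereas Wrn, its relative, was lowest at 3.41 FPKM in KO_LPS replicate 1. In the Fanconi core complex, which ubiquitinates the ID pair, Fancg was at 3.16, 2.67 and 6.81 FPKM in KO_LPS, at 3.90, 7.79 and 6.51 FPKM in WT_LPS, against 5.24 and 6.72 FPKM in WT_PBS. Fanca, Fancc, Fancl, the ligase subunit, and Fancm, the translocase that anchors the complex, likewise had their lowest value in KO_LPS replicate 2, equalled in replicate 1 for Fanca. Fanca, Fancl and Fancm also had their highest value in KO_LPS, at 8.73, 14.27 and 3.23 FPKM in replicate 3, and Fancc had its highest in WT_LPS replicate 2 (8.39 FPKM). Fancb, a subunit bound to FANCL, peaked in KO_LPS replicate 2 at 5.40 FPKM. Of the ID pair, Fanci was at 2.87, 1.71 and 7.18 FPKM in KO_LPS, at 3.25, 4.81 and 5.82 FPKM in WT_LPS, against 4.92 and 5.60 FPKM in WT_PBS. Its partner Fancd2 ranged from 3.63 to 7.23 FPKM, so that the ratio of the pair was 0.359 in KO_LPS replicate 2 and 0.699 to 0.993 in the other 7 libraries.

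**Figure D3:**
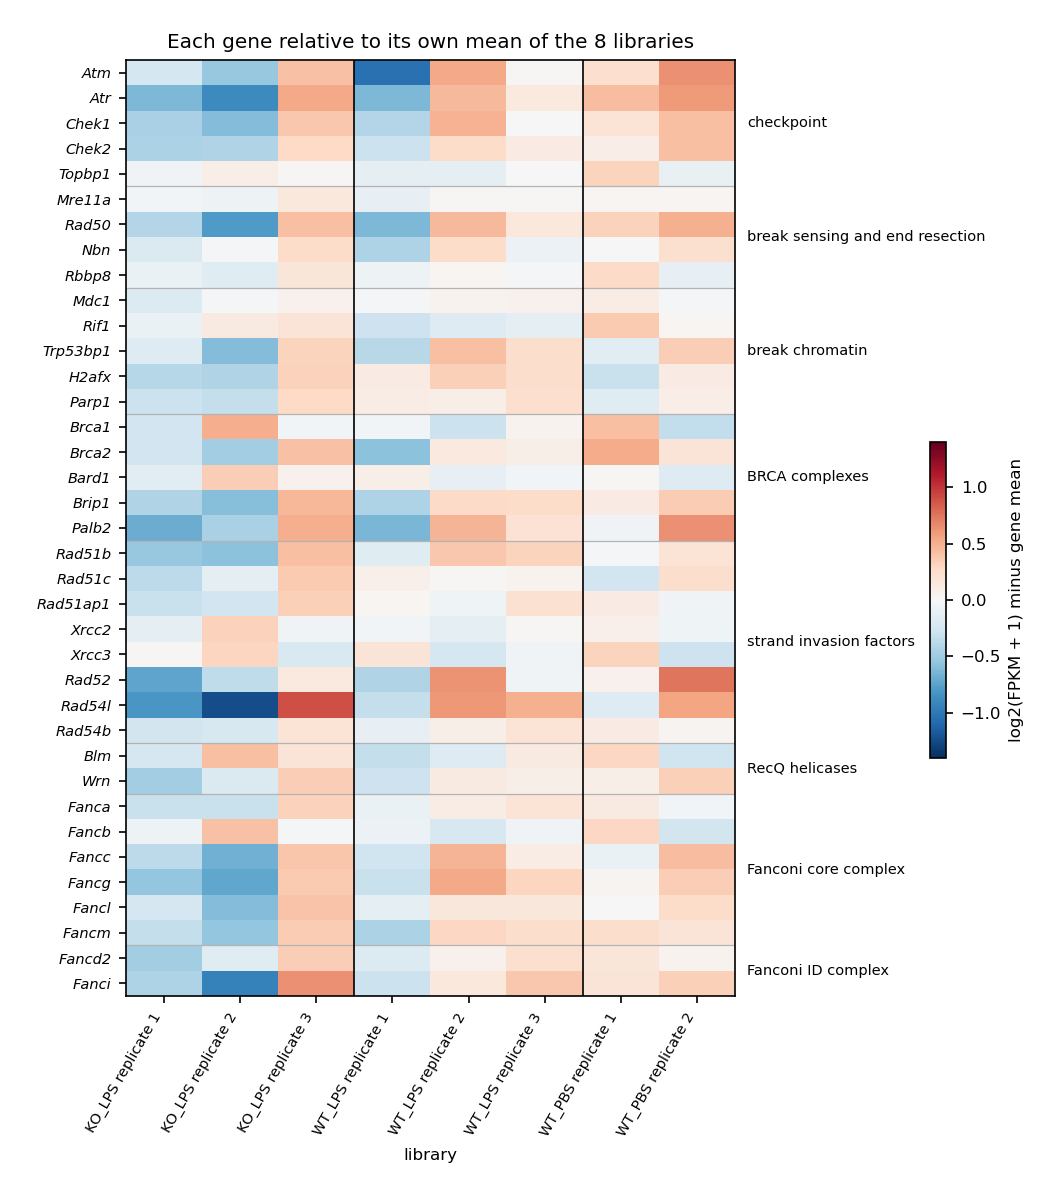
Difference of log2(FPKM + 1) of each gene from its own mean over the 8 libraries (red above, blue below), with libraries in columns from KO_LPS through WT_LPS to WT_PBS and genes in rows by role. Most rows are blue in KO_LPS replicates 1 and 2 and in WT_LPS replicate 1, whereas Brca1, Bard1, Xrcc2, Xrcc3, Blm and Fancb are red in KO_LPS replicate 2.

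The first comparison asked how LPS and vehicle marrow differed where the transplanted cells were Aid WT. Of the 37 genes 0 passed, in either direction, where percent called over the 12061 tested genes was 0 (limma, Benjamini-Hochberg over all tested genes, threshold 0.05). At an unadjusted p under 0.05 there were 0 of 37, where all tested genes gave 142 (1.18%, of which 0.439% higher and 0.738% lower). The smallest p was that of Rif1, at 6.42 ± 0.411 FPKM in WT_LPS (SD, n = 3) and 8.83 ± 1.58 FPKM in WT_PBS (n = 2), a log2(FPKM + 1) difference of -0.40 ± 0.20 (SE; limma, unadjusted p = 0.0778, adjusted p = 0.9998). This scale understates changes of low genes. H2afx averaged 167 ± 13.1 FPKM in WT_LPS and 133 ± 27.7 FPKM in WT_PBS, a difference of 0.33 ± 0.24. The kinase genes Atm and Atr differed by -0.60 ± 0.46 and -0.53 ± 0.45, Brca2 by -0.47 ± 0.33 and Topbp1 by -0.19 ± 0.15, each with an adjusted p of 0.9998 (limma). Without WT_PBS replicate 1 the Topbp1 difference was 0.02.

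Taken by groups that do not overlap, H2afx lay higher in WT_LPS, 1 of 37 beside 5.36% of all tested genes, and Brca2, Mre11a and Rif1 lay lower, 3 of 37 beside 10.3%. These shares are near those of all genes. Of the 37 differences 28 were below 0 (75.7%), beside 61.5% of all tested genes, and the median was -0.09, beside -0.06 for all. With quantile normalization the median of the 37 was -0.0049 and with median-ratio scaling -0.04. Without WT_LPS replicate 1 it was 0.0017, and with only the libraries whose titles carry low numbers, which leaves replicate 1 as the sole WT_LPS library, it was -0.34. The meaning of those numbers is not in the labels, and the high-numbered libraries are WT_LPS alone, so no comparison within them exists.

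The second comparison set marrow with Aid KO cells against marrow with Aid WT cells, both with LPS. Again 0 of the 37 passed, where 10 of 12061 tested genes did (0.0829%: 7 higher, 0.0580%, and 3 lower, 0.0249%), and 0 of 37 had an unadjusted p under 0.05, where all tested genes gave 686 (5.69%, of which 2.51% higher and 3.18% lower). H2afx had the smallest p, at 130 ± 41.3 FPKM in KO_LPS and 167 ± 13.1 FPKM in WT_LPS (SD, n = 3 each), a log2(FPKM + 1) difference of -0.40 ± 0.21 (SE; limma, unadjusted p = 0.0937, adjusted p = 0.765). Parp1 averaged 124 ± 31.5 FPKM in KO_LPS and 146 ± 8.58 FPKM in WT_LPS, a difference of -0.26 ± 0.17. The low genes Fancg, Rad51b and Rad54l differed by -0.48 ± 0.33, -0.40 ± 0.30 and -0.64 ± 0.54, and Rif1 by 0.27 ± 0.18, each with an adjusted p of 0.765 (limma). Rad54l averaged 5.01 ± 5.01 FPKM in KO_LPS and 6.85 ± 2.5 FPKM in WT_LPS, so its spread within KO_LPS was as large as its mean.

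Rif1 was the 1 gene of 37 whose groups did not overlap, higher in KO_LPS, beside 4.82% of all tested genes, and 0 of 37 lay lower without overlap, beside 4.32%. Of the 37 differences 26 were below 0 (70.3%), beside 58.0% of all tested genes. Their median was -0.15, beside -0.06 for all. That median turned with the libraries and covariate included. It was 0.13 without the 3 libraries that stood apart, which leaves KO_LPS replicate 3 as the sole KO_LPS library. With only low-numbered libraries, which leaves replicate 1 as the sole WT_LPS library, it was 0.10. With the first component as covariate, here computed with the 37 included, it was 0.12. Without KO_LPS replicate 3 it was -0.35, and with quantile normalization -0.03. Weighting libraries by their fitted variance gave 8 of 37 passing (21.6%), beside 2727 of 12061 tested genes (22.6%), and a median of -0.43. That fit gave WT_LPS replicate 3 a weight of 10.1 and every other library 0.25 to 1.4.

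The third comparison, of marrow with Aid KO cells and LPS against marrow with Aid WT cells and vehicle, shares its libraries with the first and second. Of the 37 genes 0 passed, where 6 of 12061 tested genes did (0.0497%: 4 higher, 0.0332%, and 2 lower, 0.0166%), and 0 had an unadjusted p under 0.05, where all tested genes gave 807 (6.69%, of which 2.86% higher and 3.83% lower). Rad52 averaged 1.94 ± 0.895 FPKM in KO_LPS (SD, n = 3) and 3.84 ± 1.61 FPKM in WT_PBS (n = 2), a log2(FPKM + 1) difference of -0.72 ± 0.38 (SE; limma, unadjusted p = 0.0924, adjusted p = 0.631). Atr averaged 3.78 ± 2.69 FPKM in KO_LPS and 6.84 ± 0.615 FPKM in WT_PBS, a difference of -0.85 ± 0.45. Rad50, Chek1, Chek2 and Brca2 differed by -0.67 ± 0.40, -0.54 ± 0.36, -0.46 ± 0.28 and -0.47 ± 0.33, each with an adjusted p of 0.631 (limma). In each of these 6 the values of KO_LPS replicate 3 lay within the range of WT_PBS, and KO_LPS replicates 1 and 2 lay below it.

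No gene of the 37 had groups that did not overlap in this comparison, 0 higher beside 8.22% of all tested genes and 0 lower beside 13.3%. Of the differences 31 were below 0 (83.8%), beside 65.0% of all tested genes, with a median of -0.21, beside -0.12 for all. Median-ratio scaling of the libraries moved the median of all genes to -0.01 and that of the 37 to -0.10, and quantile normalization moved that of the 37 to -0.06. Without the 3 libraries that stood apart, which leaves KO_LPS replicate 3 alone, the median was 0.14, and without KO_LPS replicate 3 it was -0.44. With the first component as covariate, again computed with the 37 included, the median was 0.07.

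**Figure D4:**
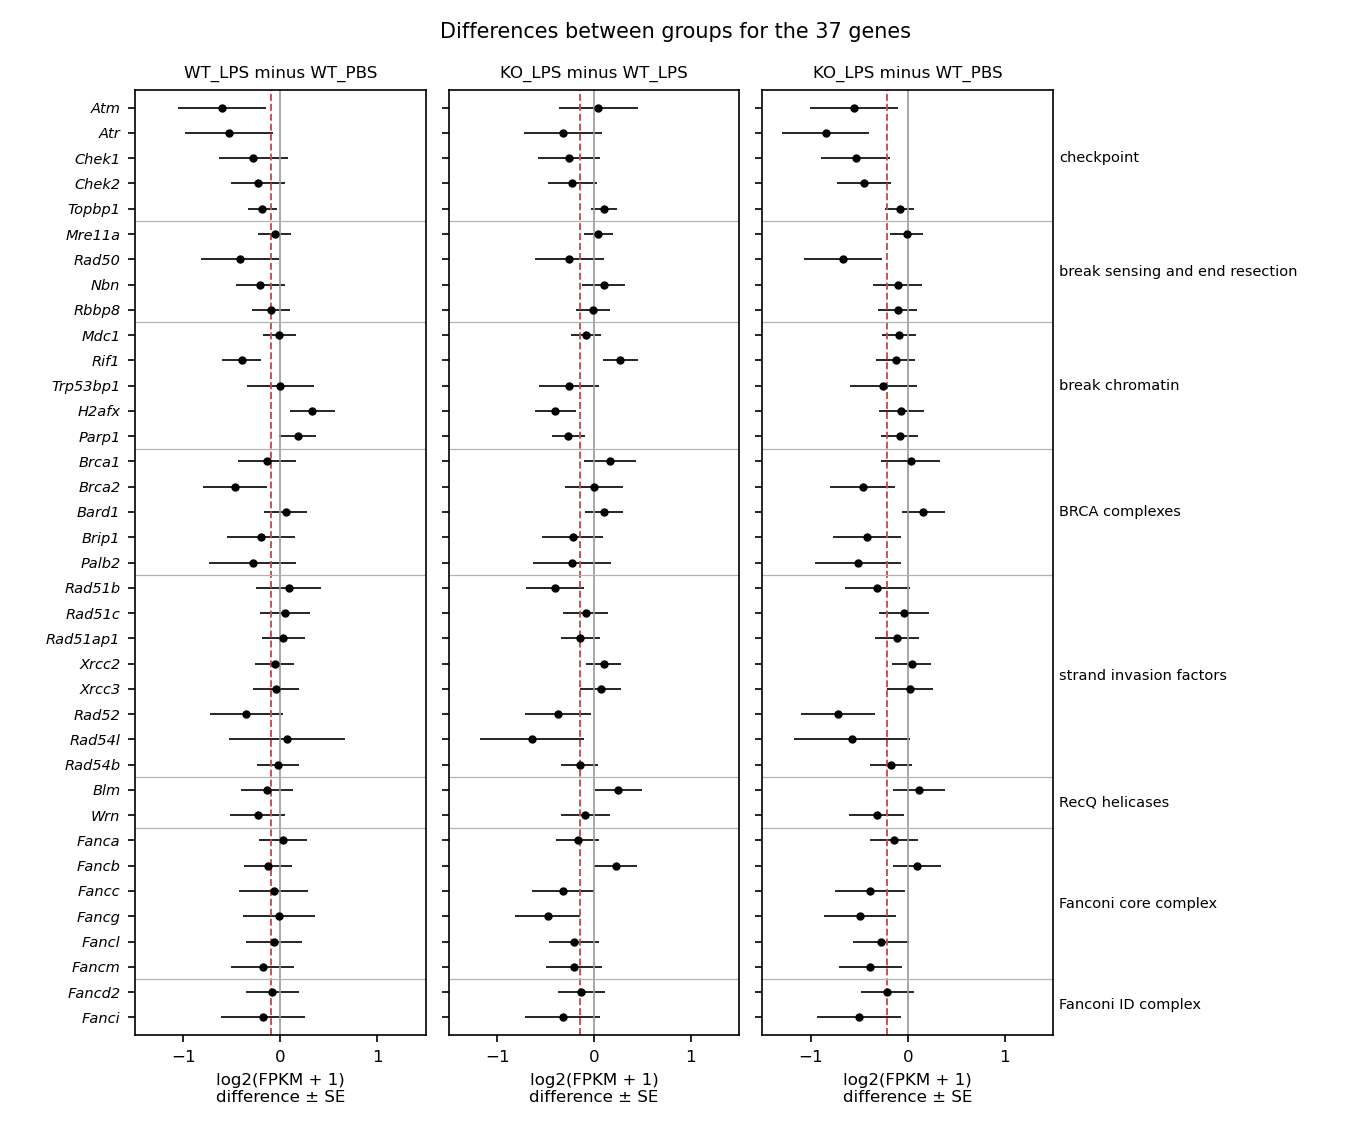
Difference in log2(FPKM + 1) with its standard error for each gene, for WT_LPS minus WT_PBS, KO_LPS minus WT_LPS and KO_LPS minus WT_PBS, with the median of the 37 as a dashed line. The medians are -0.09, -0.15 and -0.21, and 0 of 37 differences passed the threshold in each panel.

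Libraries of 1 group differed widely in these genes, a pattern described after the values were seen. In KO_LPS, replicate 3 was the highest of the 3 libraries for 30 of 37 genes, beside 55.5% of all tested genes, and the lowest for 1 of 37 (Xrcc3), beside 27.9%. In WT_LPS, replicate 1 was the lowest for 29 of 37, beside 54.2%, and the highest for 3 of 37, beside 30.4%. In WT_PBS, replicate 1 was above replicate 2 for 16 of 37, beside 43.0%. On the log2(FPKM + 1) scale, KO_LPS replicate 3 minus the mean of replicates 1 and 2 had a median of 0.68 over the 37, with 1.93 for Rad54l, 1.34 for Fanci and 1.29 for Atr, beside a median of 0.18 over all tested genes. WT_LPS replicate 1 minus the mean of replicates 2 and 3 had a median of -0.34, with -1.32 for Atm, -0.98 for Palb2 and -0.93 for Atr, beside -0.13 over all. For the lists of other recombination, Fanconi, checkpoint and break chromatin genes, described below, the KO_LPS medians were 0.521, 0.292, 0.281 and 0.235. Their WT_LPS medians were -0.354, -0.217, -0.2 and -0.199.

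For 5 of 37 genes (13.5%), beside 24.8% of all tested genes, both differences had the opposite sign, namely Xrcc3, Fancb, Brca1, Xrcc2 and Bard1, with -0.37 in KO_LPS and 0.33 in WT_LPS for Xrcc3 and -0.16 and 0.09 for Brca1. Only Xrcc3 among them was lowest in KO_LPS replicate 3. Brca1, Bard1, Fancb and Xrcc2 were lowest in KO_LPS replicate 1 and highest in replicate 2, so their sign in KO_LPS came from replicate 2. For 30 of 37 (81.1%), beside 51.0% of all tested genes, KO_LPS replicate 3 lay above and WT_LPS replicate 1 below the mean of the other libraries of their group. This pattern was not confined to the 37. It held for 23 of 33 other recombination and 11 of 15 other Fanconi genes. It also held for 9 of 15 other checkpoint and 8 of 13 other break chromatin genes. Among tested genes of cell types, 8 of 10 T and NK and 6 of 11 B-lineage genes had it. Fewer did among monocyte and macrophage (4 of 10), erythroid (1 of 8), neutrophil (0 of 12) and megakaryocyte genes (0 of 5). Of the proliferation genes 7 of 20 had it. The longest annotated transcripts of the 5 (GENCODE M21) measured 2.42 kb (Xrcc3), 2.98 kb (Fancb), 6.57 kb (Brca1), 3.25 kb (Xrcc2) and 5.66 kb (Bard1), inside the range of 1.38 to 10.7 kb over the 37. Across the 37 genes, which are not independent replicates, Spearman's rho of the KO_LPS difference was 0.01 with transcript length, -0.02 with GC content and -0.31 with mean FPKM. For the WT_LPS difference rho was -0.23, 0.12 and 0.34. Over the 11325 tested genes with a transcript, rho was 0.08, -0.02 and -0.22 in KO_LPS and -0.17, 0.16 and 0.18 in WT_LPS.

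**Figure D5:**
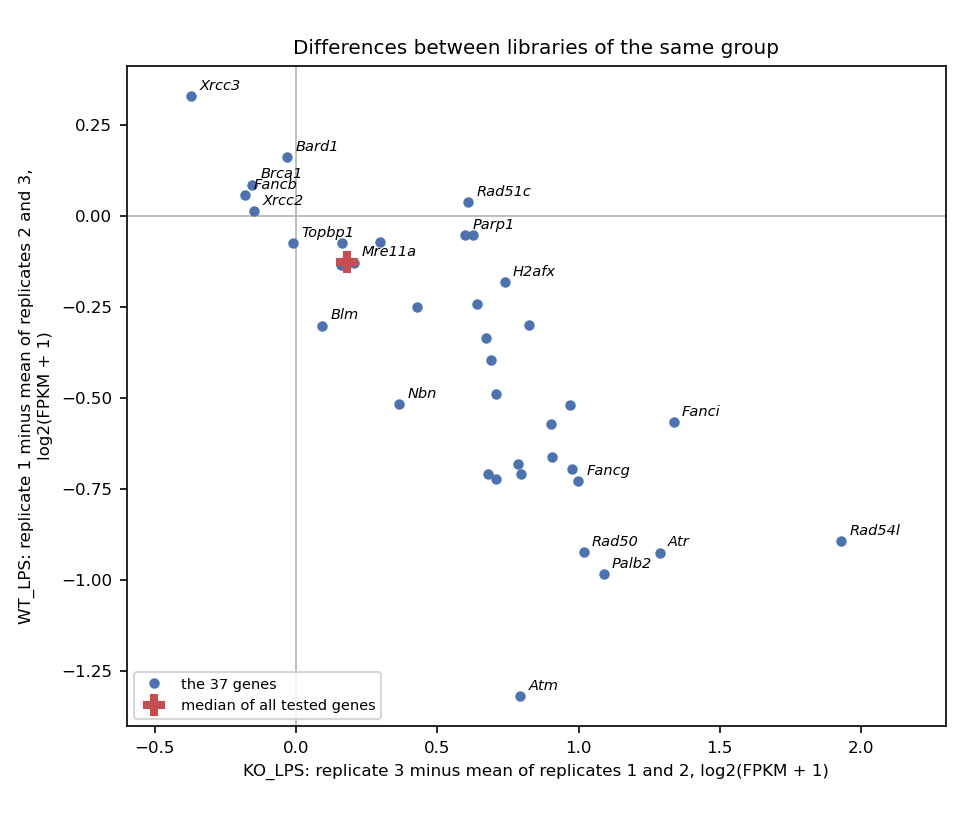
For each of the 37 genes, KO_LPS replicate 3 minus the mean of replicates 1 and 2 (horizontal) against WT_LPS replicate 1 minus the mean of replicates 2 and 3 (vertical), both in log2(FPKM + 1), with the median of all tested genes as a cross. At lower right are 30 genes, led by Rad54l, Atm, Atr, Palb2 and Rad50, and at upper left are Xrcc3, Bard1, Brca1, Fancb and Xrcc2.

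Values of other genes moved along with these libraries. The median of the 37 was 5.25, 5.40 and 8.73 FPKM in KO_LPS, 5.61, 7.97 and 7.26 FPKM in WT_LPS and 7.87 and 7.85 FPKM in WT_PBS, and the median of all tested genes was 9.99, 10.03 and 12.06 FPKM, 10.19, 12.55 and 11.49 FPKM, and 11.72 and 12.71 FPKM in the same libraries. The 37 thus stood at 0.526 and 0.538 of the all-gene median in KO_LPS replicates 1 and 2 and at 0.551 in WT_LPS replicate 1, against 0.618 to 0.724 in the other 5 libraries. A list of 20 proliferation genes, such as Mki67 and the MCM helicase subunits, had a median of 74.83, 79.83 and 93.40 FPKM in KO_LPS, 85.70, 76.08 and 87.94 FPKM in WT_LPS and 77.04 and 71.40 FPKM in WT_PBS. Within KO_LPS its libraries had the same order as for the 37, with replicate 3 highest, whereas in WT_LPS replicate 1 was not the lowest. The sum of the 12 B-lineage genes was 7893, 6581 and 5360 FPKM in KO_LPS, 6629, 5374 and 6000 FPKM in WT_LPS and 6192 and 5448 FPKM in WT_PBS, so it was highest in the 3 libraries that stood apart. Their median was lowest in the same 3, at 68.3, 74.1 and 83.86 FPKM in KO_LPS, 81.72, 103.12 and 90.16 FPKM in WT_LPS and 98.28 and 102.32 FPKM in WT_PBS. The sum of 11 erythroid genes was 1238, 1002 and 134 FPKM in KO_LPS, 150 to 352 FPKM in WT_LPS and 238 to 373 FPKM in WT_PBS, with 0 of 11 at 0 in any library. The sum of 12 neutrophil genes was 6955, 5931 and 14977 FPKM in KO_LPS, 29559, 9545 and 9087 FPKM in WT_LPS and 12897 and 16385 FPKM in WT_PBS, with 0 of 12 at 0. The sum of 11 T and NK cell genes was 25.4, 23.0 and 46.5 FPKM in KO_LPS and 30.8, 50.5 and 39.8 FPKM in WT_LPS. In WT_PBS it was 26.6 and 45.5 FPKM, with Ncr1 at 0 in at least 1 library. The sum of 10 monocyte and macrophage genes was 354.8, 291.4 and 254.0 FPKM in KO_LPS and 384.2, 266.1 and 203.5 FPKM in WT_LPS. In WT_PBS it was 236.6 and 263.7 FPKM. The sum of 6 megakaryocyte genes stayed between 10.2 and 26.8 FPKM. The part of any of these cell types in the values of the 37 was not tested.

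Another 76 genes of the same pathways, in 4 lists of recombination, Fanconi, checkpoint and break chromatin genes, gave the wider setting. In each of the 3 comparisons 0 of 76 passed, beside 0, 0.0829% and 0.0497% of all tested genes. At an unadjusted p under 0.05 (limma) there were 1, 0 and 0, beside 1.18%, 5.69% and 6.69% of all tested genes. Their medians were -0.08 for WT_LPS minus WT_PBS (55 of 76 below 0), -0.09 for KO_LPS minus WT_LPS (54 below) and -0.13 for KO_LPS minus WT_PBS (54 below). These medians are near those of all tested genes, -0.06, -0.06 and -0.12 in the same order, of which 61.5%, 58.0% and 65.0% were below 0. By list they differed. For KO_LPS minus WT_LPS the median was -0.15 for recombination and -0.15 for Fanconi genes, like the -0.15 of the 37. It was -0.009 for checkpoint and -0.04 for break chromatin genes. For KO_LPS minus WT_PBS the medians were -0.23, -0.13, -0.05 and -0.12 in the same order, beside -0.21 for the 37. Cdc25b, the phosphatase that releases cells into mitosis and a target of the checkpoint, was at 38.87, 33.11 and 32.29 FPKM in WT_LPS, against 23.68 and 28.23 FPKM in WT_PBS (limma, difference 0.41 ± 0.15, unadjusted p = 0.0266, adjusted p = 0.9998). Babam1, a subunit of the BRCA1-A complex, was at 48.72, 47.57 and 56.98 FPKM in KO_LPS, at 62.56, 56.54 and 61.65 FPKM in WT_LPS, against 46.75 and 52.69 FPKM in WT_PBS, and Babam2, of the same complex, averaged 77.6 ± 7.78 FPKM in WT_LPS (SD, n = 3) and 67.7 ± 3.80 FPKM in WT_PBS (n = 2). Babam1 was thus higher in each WT_LPS library than in either WT_PBS library, 1 of 13 break chromatin genes, beside 5.36% of all tested genes. Of its WT_LPS values, only that of replicate 2, at 56.54 FPKM, fell within the KO_LPS range. Etaa1, another activator of ATR, was at 7.28, 7.19 and 6.82 FPKM in KO_LPS and at 5.39, 6.0 and 5.18 FPKM in WT_LPS. Swsap1, a recombination factor, averaged 2.5 ± 1.35 FPKM in KO_LPS (SD, n = 3), 4.47 ± 1.70 FPKM in WT_LPS (n = 3) and 4.69 ± 1.47 FPKM in WT_PBS (n = 2). Paxip1, a BRCT-domain protein of the break response, averaged 48.4 ± 4.43 FPKM in KO_LPS and 39.7 ± 4.07 FPKM in WT_PBS, and Rmi1, a partner of BLM, 5.38 ± 1.28 FPKM in KO_LPS and 7.64 ± 0.403 FPKM in WT_PBS. None of these passed.

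The annotation may set a limit on some values. Of the 37 genes 11 have a span, introns included and strand ignored, that shares bases with another protein-coding gene on GRCm38.p6. Among them are Fancc with Aopep (24763 bases), Rad54b with Fsbp (8141 bases), Trp53bp1 with Map1a (6765 bases) and Xrcc3 with Klc1 (4653 bases). Smaller overlaps include Fanci with Polg (4036 bases), Rad54l with Lrrc41 (2849 bases) and Fancb with Mospd2 (26 bases). How many of these bases lie in exons was not checked. Whether counting used strand is not given in the sources used here, so reads in any shared exon bases could belong to either gene. The 37 genes lie on 14 chromosomes, with 6 on chromosome 9 (Atm, Atr, Chek1, Mre11a, H2afx and Topbp1) and 5 on chromosome 11.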

How the data were processed

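Total RNA of bone marrow was made into libraries with the SMARTER mRNA-Seq kit (per the labels' protocols) and sequenced. The deposited table holds FPKM made by the authors, per the file headers, rounded to 2 decimals, and the builds GRCm38 and mm10 come from the submitters' processing notes. For aligner and quantifier, each is not given in the sources used here. Gene numbers were matched to RefSeq symbols of GRCm38.p6 (16798 of 18020 rows), H2afx through a synonym. Groups follow the titles, and replicate numbers follow accession order.

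Values were transformed to log2(FPKM + 1). Genes averaging 0.5 FPKM or more (12061, all 37 members among them) were fitted over the 8 libraries with limma 3.58.1 (R 4.3.3; group means, trended moderation), and p-values were adjusted by Benjamini-Hochberg per comparison, two-sided. Correlations across genes of the libraries were 0.963 to 0.995 on this scale, and none was counted as a duplicate. Members with full statistics are the 6 with the smallest p per comparison, and of the 76 other pathway genes the 3 with the smallest p. The 37 members and all lists were chosen with earlier results of these data known, and the partner ratios and within-group differences after their values were seen. Transcript length and GC content come from the longest GENCODE M21 transcript (93.9% of tested genes). The fit was tested on simulated data. The alternatives comprised 20 planned settings and 1 added after seeing the data. One check of the genotype labels is not reported here.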

Additional observations from a re-analysis of the deposited data

How the results depend on the processing

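The count of members passing was 0 under each alternative run, except that library weights gave 8 of 37 (21.6%) for KO_LPS against WT_LPS, beside 22.6% of all tested genes (H2afx, Parp1, Fancg, Rad51b and Rad54l were among the 8). With a mean of at least 5 FPKM, 10 of the 37 were not tested. Over 18 member results and 372 alternative values, 354 kept their direction and side of the threshold, 5 passed (all under library weights) and 13 changed sign. Without the 3 libraries that stood apart (chosen after seeing the data), the KO_LPS against WT_LPS differences were 0.0336 for H2afx, 0.12 for Parp1, 0.0727 for Rad51b and 0.34 for Rad54l, and those of KO_LPS against WT_PBS 0.0087 for Atr, 0.0087 for Rad50, 0.017 for Chek2, 0.0663 for Chek1 and 0.0569 for Brca2. With the first component as covariate, computed with the 37 included, Rad54l was at 0.17 (KO_LPS against WT_LPS) and Chek1 at 0.0245 (KO_LPS against WT_PBS). Fancg was at 0.0064 (KO_LPS against WT_LPS) without the 2 high-numbered libraries, and Topbp1 (WT_LPS against WT_PBS) at 0.0208 without WT_PBS replicate 1, the other end of its range over single left-out libraries being -0.3943. The cause was not tested.

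The median of the 37 for KO_LPS against WT_LPS was -0.43 with library weights, 0.12 with the component and 0.13 without the 3 libraries, and over single left-out libraries -0.35 to -0.03. For KO_LPS against WT_PBS it was 0.0694 with the component, 0.14 without the 3 libraries and -0.44 to -0.09 over single left-out libraries, and for WT_LPS against WT_PBS -0.17 to 0.0017. Scaling brought the medians nearer to 0: for KO_LPS against WT_LPS, KO_LPS against WT_PBS and WT_LPS against WT_PBS they were -0.034, -0.0621 and -0.0049 with quantile normalization, and -0.0885, -0.1011 and -0.0375 with median-ratio scaling. The proliferation list as covariate moved them farther from 0, to -0.1881, -0.3201 and -0.1749 in the same order.

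Over all tested genes, the number passing for KO_LPS against WT_LPS was 10, but 5 with no filter, 2 with a mean of at least 5 FPKM, 2727 with library weights, 0 with only the groups compared, 16 with the component, 17 with the proliferation list as covariate, 0 without the 2 high-numbered libraries, 1 without the 3 libraries and 0 to 161 over single left-out libraries (161 without KO_LPS replicate 3). For KO_LPS against WT_PBS it was 6, but 0 with no filter, 3 with a mean of at least 5 FPKM, 3 with median-ratio scaling, 10 with quantile normalization, 73 with library weights, 0 with only the groups compared, 0 without the high-numbered libraries, 1 without the 3 libraries and 0 to 125 over single left-out libraries (125 without KO_LPS replicate 3). For WT_LPS against WT_PBS it was 0, and 0 to 2 over single left-out libraries. Where an alternative leaves a group with 1 library, that library is assumed to vary like the others.

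No paired analysis was possible because the titles share no replicate numbers between groups. FPKM without counts leave read depth unknown.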
